A study of Mus musculus with 19 samples.

Results

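The genes described here encode glutamate receptors and the auxiliary subunits that travel with them. They comprise 33 of the 51789 genes in the count table: 4 AMPA receptor subunits (Gria1 to Gria4), 6 NMDA receptor subunits (Grin1, Grin2a to Grin2d and Grin3a), 5 kainate receptor subunits (Grik1 to Grik5), the delta receptor Grid1, 6 metabotropic receptors (Grm2, Grm3, Grm4, Grm5, Grm7 and Grm8), 6 transmembrane AMPA receptor regulatory proteins or TARPs (Cacng2, Cacng3, Cacng4, Cacng5, Cacng7 and Cacng8), 3 other AMPA receptor auxiliary proteins (Cnih2, Cnih3 and Shisa9) and 2 kainate receptor auxiliary proteins (Neto1 and Neto2). They were chosen by symbol, with earlier results of these data known, and all 33 were found through their Ensembl identifiers. Paralogs of some of these families are not among the 33.

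The tissue was dorsal hippocampus from male mice of strain C57BL/6J, 2 to 4 months old, sequenced as 19 libraries in 2 experiments. In experiment 1 all mice were tTA+ and had been exposed to SOR, an exposure that the labels give by this abbreviation only. Of these, 5 were DN+ (genotype tTA+/DN+), where DN is a dominant-negative Nr4A transgene, and 6 were DN- controls (tTA+/DN-). In experiment 2 all 8 mice were DN-, with 4 exposed to SOR and 4 kept in the homecage. SOR replicate 1 and homecage replicates 1 and 2 were tTA-, and the remaining 5 mice were tTA+. The tetracycline transactivator (tTA) drives transgenes under a tet promoter, and the labels do not name the promoter or the cells that drive tTA itself. The study concerned endoplasmic reticulum chaperones in the consolidation of long-term memory, so the receptor genes were not its main readout.

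Totals ranged from 22258159 to 66991576 counts per library, and the smallest belonged to SOR replicate 3 of experiment 2. That library had 27815 genes detected, against 30974 to 31141 in the other 3 SOR libraries, and its departures among the genes described here are given with the SOR comparison. Variation between replicates was wider in experiment 2, with a biological coefficient of variation of 0.169, than in experiment 1, with 0.0940. Libraries of 1 group gave a chi-square per degree of freedom of 5.07 to 83.6 over both experiments, and each was counted as its own sample. The labels do not say in so many words that each library is a separate animal, so p-values measure the spread between these samples. Levels are CPM, library-size-scaled counts after TMM (trimmed mean of M values) normalisation, and CPM per kb of annotated exon where genes are compared with each other. In bulk tissue, fewer cells of a type and less RNA per cell cannot be told apart.

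Glutamate is the main excitatory transmitter of the hippocampus. AMPA receptors are tetramers of GluA subunits that carry most of the fast synaptic current, NMDA receptors pair the obligatory GluN1 with other GluN subunits and admit calcium when glutamate arrives at a depolarised membrane, and kainate receptors act on both sides of the synapse. Metabotropic receptors signal through G proteins. TARPs and cornichons control the traffic and gating of AMPA receptors, and the Neto proteins do so for kainate receptors. In the hippocampus, changes in the number of synaptic AMPA receptors accompany long-term potentiation, and NMDA receptors start that process.

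Promoter windows were searched for motifs because the DN transgene is a dominant-negative form of a DNA-binding protein. The windows run from 250 bases before the RefSeq start to 50 bases from it on, on the GRCm38.p6 assembly. The RefSeq table held 26 such windows for 21 of the 33 genes. They were searched on both strands for AAAGGTCA, the element bound by Nr4A proteins as monomers and known as the NBRE, and for TGACGTCA, the cyclic AMP response element. Neither string was in any of the 26 windows. Among all 32851 windows of this length 1.51% held the first and 1.79% the second, so a set of 26 windows would often hold neither. The absence of these letters in a window of 300 bases is a description only.

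Levels were compared between genes in the 4 homecage mice, 2 of them tTA- and 2 tTA+. Cnih2, a cornichon that slows the closing of AMPA receptors, and Gria1, the GluA1 subunit, stood first at 200.7 ± 17.7 and 198 ± 18.2 CPM per kb (SD, n = 4), and the ranges of the 4 libraries overlapped. Gria2, which makes AMPA receptors largely impermeable to calcium, followed at 102 ± 5.87 CPM per kb and overlapped neither neighbour in the order. At the other end stood Grin2d, an NMDA subunit known from interneurons, at 0.502 ± 0.0565 CPM per kb, 400.0-fold below Cnih2. The smallest count of any of the 33 genes in any library was 46, and 32 of the 33 had at least 100 counts in every library, so depth limits the values of Grin2d more than those of the others. Of the 32 pairs of neighbours in the order, 23 overlapped in their ranges. With the longest transcript as the length, in place of all annotated exon bases, no gene moved by more than 4 places, and Gria1 then stood ahead of Cnih2.

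**Figure D1:**
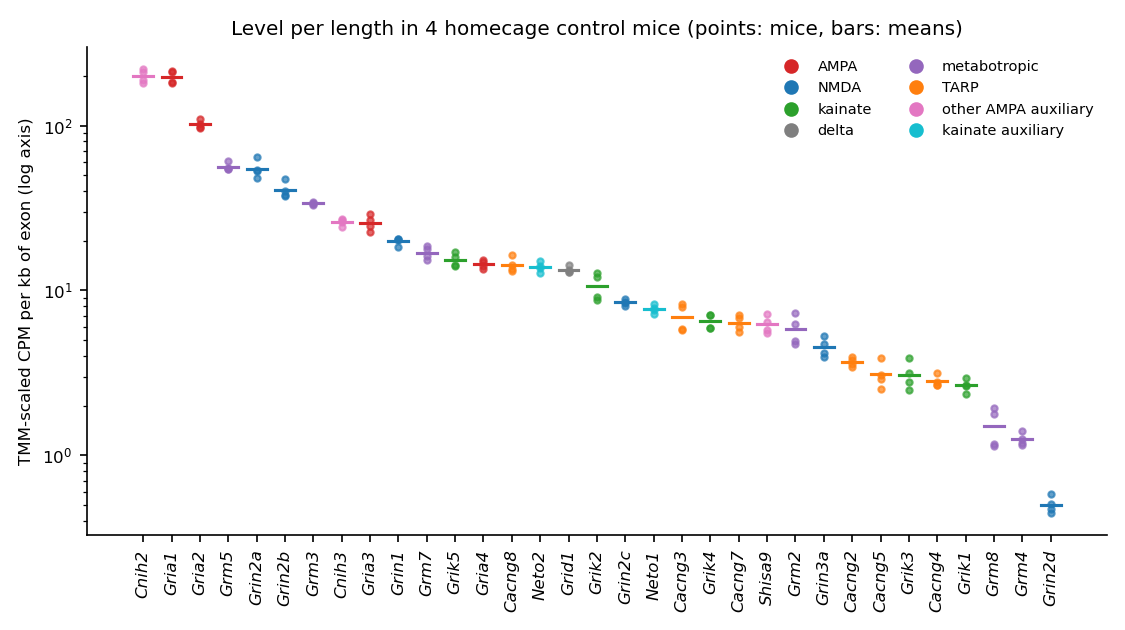
Level per length of the 33 genes in the 4 homecage mice of experiment 2, in TMM-scaled CPM per kb of exon on a log axis, in descending order. Points are mice, bars are means and colours are families; Cnih2 and Gria1 are near 200 CPM per kb and Grin2d is near 0.5.

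Among AMPA receptor subunits, Gria1 was at 212, 215, 180 and 185 CPM per kb in homecage replicates 1 to 4, with the tTA- replicates 1 and 2 above the tTA+ replicates 3 and 4. Gria4, a subunit known from interneurons, was at 13.5, 13.9, 15.2 and 14.8 CPM per kb in the same mice and the lowest of the family, while Gria3 stood at 25.7 CPM per kb on average. Over all 19 libraries Gria1 made up 54.1% to 63.7% of the summed CPM per kb of the family (median 59.3%), Gria2 25.8% to 33.6% (29.3%), Gria3 6.05% to 8.19% (7.36%) and Gria4 3.65% to 5.16% (4.16%). The order Gria1, Gria2, Gria3, Gria4 thus held by share in every library. All shares and ratios given here use all annotated exon bases as the length and depend on that choice. By the longest transcript the homecage means of Gria1 to Gria4 were 215.9, 152.6, 48.61 and 16.66 CPM per kb. The share of Gria1 would then be smaller and those of Gria2 and Gria3 larger. The ratio of Gria1 to Gria2 per length had medians of 2.03 in DN mice, 2.11 in their controls, 1.89 after SOR in experiment 2 and 1.92 in the homecage, and its ranges overlapped between the groups of each experiment.

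Among NMDA receptor subunits, Grin2a was the highest, at 52.7, 64.1, 47.7 and 53.6 CPM per kb in homecage replicates 1 to 4, and Grin2b followed at a mean of 40.7 CPM per kb. Grin2a encodes GluN2A, which rises during postnatal development, and Grin2b encodes GluN2B, which dominates early in life. Grin2d was at 0.448, 0.578, 0.508 and 0.472 CPM per kb in the same mice. Of the summed level of the Grin2 genes, Grin2a took 50.2% to 55.5%, Grin2b 35% to 43.9%, Grin2c 5.33% to 13.2% and Grin2d 0.181% to 1.03% over the 19 libraries. By the longest transcript the homecage means were 66.85 CPM per kb for Grin2a and 42.0 CPM per kb for Grin2b, so the share of Grin2a would be larger. Grin1, the subunit that every NMDA receptor needs, was at 19.9 CPM per kb, below Grin2a and Grin2b. Its place depends on the length used, since by the longest transcript it moved from rank 10 to rank 7 and stood above Grin2b, at 45.1 against 42.0 CPM per kb, and 13.5% of its exon bases are shared with Grin1os on the opposite strand. Grin3a, a subunit that lowers calcium entry, was at 4.53 CPM per kb.

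Among kainate receptor subunits, Grik5 was the highest in the homecage, at 15.9, 17.1, 14.1 and 14.3 CPM per kb, and Grik1 the lowest by all exon bases, at 2.63, 2.95, 2.67 and 2.35 CPM per kb. Its range overlapped that of Grik3, and by the longest transcript Grik3 was the lowest, at a mean of 3.07 against 4.87 CPM per kb. Grik4 and Grik5 encode high-affinity subunits that need a Grik1, Grik2 or Grik3 partner, and of these partners Grik2 was the most abundant at 10.7 CPM per kb. Over the 19 libraries Grik5 made up 32.9% to 55.3% of the family (median 37%) and Grik2 17.5% to 31.9% (27.3%). Grid1, the single delta receptor measured here and a synaptic organiser that binds cerebellins, was at 13.4, 14.2, 12.9 and 12.8 CPM per kb in the homecage. Its residual SD in experiment 2 was 0.0569 on the log2 scale, the smallest of the 33 genes in that experiment.

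Among metabotropic receptors, Grm5, which couples to phospholipase C, was the highest at 55.2, 61.1, 54.7 and 54.6 CPM per kb, and Grm4, a presynaptic inhibitory receptor, with the lowest mean at 1.15, 1.18, 1.25 and 1.404 CPM per kb. Grm8 overlapped it, from 1.14 to 1.93 CPM per kb, and after SOR their means were 1.43 (Grm8) and 1.44 (Grm4) CPM per kb. Grm5 made up 42% to 50.2% of the 6 genes over the 19 libraries, Grm3, an inhibitory receptor also made by astrocytes, 26.6% to 34.2%, and the presynaptic Grm7 13.6% to 16.7%. Grm2, known from the mossy fibre pathway, stood at 5.79 ± 1.21 CPM per kb and Grm8 at 1.51 ± 0.412 CPM per kb (SD, n = 4). Grm3 was at 33.7 ± 0.404 CPM per kb. By the longest transcript Grm3 kept that mean while Grm5 stood at 71.81 CPM per kb, so the share of Grm3 would be smaller.

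Among TARPs, Cacng8, the gamma-8 protein that is concentrated in the hippocampus, was the highest at 14.2, 16.5, 13.1 and 13.4 CPM per kb, and Cacng4 the lowest in these mice at 2.67, 2.79, 3.14 and 2.67 CPM per kb. Cacng5 overlapped it there (mean 3.09 against 2.82 CPM per kb) and had the lower mean in the other 3 groups. Over the 19 libraries Cacng5 had a median share of 5.92% and Cacng4 of 8.8% of the 6 TARPs. Cacng8 held 29.2% to 42.7% of the summed level of the 6 TARPs in the 19 libraries, Cacng3 15.5% to 28.2% and Cacng7 14.1% to 23.4%. Cacng7 and Cacng8 lie 22.5 kb apart on chromosome 7, and Cacng4 and Cacng5 80.0 kb apart on chromosome 11. Cnih2 exceeded its paralog Cnih3 by a ratio whose median was 7.58 in the homecage and 8.89 after SOR in experiment 2, with overlapping ranges. Shisa9, which modulates AMPA receptor desensitisation, stood at 6.22 CPM per kb, and Neto2 at 13.9 and Neto1 at 7.70 CPM per kb.

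**Figure D2:**
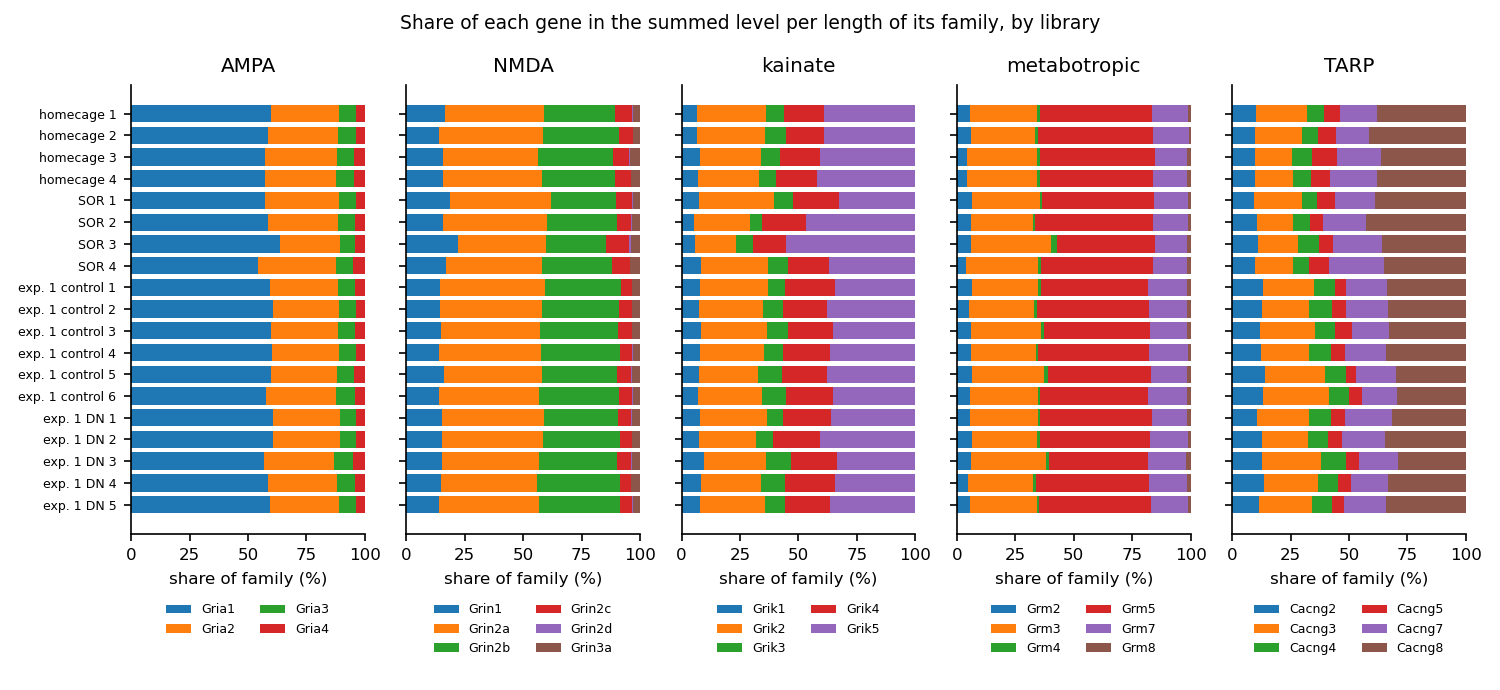
Share of each gene in the summed CPM per kb of its family (x axis, percent), for AMPA, NMDA, kainate and metabotropic receptors and TARPs, with 1 bar per library and all 19 libraries. In SOR replicate 3 of experiment 2 Grik5 reaches 55.3% of the kainate subunits and Gria1 63.7% of the AMPA subunits.

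The comparison of DN with control mice in experiment 1 asks how expression after SOR differs when the dominant-negative transgene is present. None of the 33 genes was called at an adjusted p under 0.05 by edgeR, with a smallest adjusted p of 0.999, and in all 0.00893% of the 22391 genes tested were called. Of the 33, 15 had higher and 18 lower fitted levels in DN mice, with a median log2 fold change of -0.00508 against 6.16e-05 over all genes, 50% of which were higher. None had an unadjusted p under 0.05, against 3.83% of all genes, and in none did the libraries of the groups separate, against 0.299% of all genes. The split of directions moved with the processing, from 15 to 21 lower genes over the 21 settings.

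The 4 AMPA subunits lay between -0.02 (Gria4) and 0.03 (Gria2), and the 6 NMDA subunits between -0.10 (Grin2d) and 0.06 (Grin3a). Gria1 levels in DN replicates 1 to 5 were 1389, 1333, 1155, 1258 and 1318 CPM, against 1222 to 1400 CPM with a median of 1280 CPM in the 6 controls. Its log2 fold change was -0.00156 (SE 0.0460, 95% interval -0.0975 to 0.0944). Only DN replicate 3 lay below the controls, and the groups overlapped. Grin2b stood at 1100 ± 63.2 CPM in DN mice (SD, n = 5) and 1090 ± 77.7 CPM in controls (n = 6), a log2 fold change of 0.01 (SE 0.0478).

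The 5 kainate subunits lay between -0.04 (Grik2) and 0.09 (Grik1), the 6 metabotropic receptors between -0.15 (Grm4) and 0.08 (Grm8), and the 6 TARPs between -0.12 (Cacng2) and 0.03 (Cacng7). The smallest unadjusted p values belonged to auxiliary subunits, which are named here after their values were seen. Cnih2 levels in DN replicates 1 to 5 were 262, 278, 234, 247 and 244 CPM, against 252 to 290 CPM, with a median of 267, in controls, so that the groups overlapped and 3 of the 5 DN libraries lay below all controls. Its log2 fold change was -0.09 (SE 0.0453, unadjusted p 0.0609 and adjusted p 0.999 by edgeR). Cacng2, the TARP stargazin, was at 20.6, 25.4, 25.1, 24.4 and 21.3 CPM in DN mice and at 23.6 to 28.2 CPM in controls, with 2 DN libraries below all controls. Its log2 fold change was -0.12 (SE 0.0617, adjusted p 0.999).

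Intervals show which sizes these libraries could still hold. The 95% interval of 23 of the 33 genes lay within 0.2 of 0 on the log2 scale, that of 30 within 0.3 and that of all 33 within 0.5, against 37.9%, 52.1% and 70.5% of all genes tested. The widest belonged to Grin2d, from -0.45 to 0.25, which stood at 2.11 ± 0.612 CPM in DN mice and 2.25 ± 0.281 CPM in controls. The narrowest belonged to Grid1, from -0.0906 to 0.0805. These intervals cover each gene alone and do not show that the levels were equal.

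The comparison of SOR with homecage in experiment 2 asks how expression differs with the exposure in mice without DN. None of the 33 genes was called, with a smallest adjusted p of 0.621 by edgeR, beside 0.0897% of 22305 genes called in all. The fitted levels of 26 genes were lower and those of 7 higher after SOR, with a median log2 fold change of -0.08 against 0.00759 over all genes, 51.5% of which were higher. Lower genes numbered 21 to 28 and the median stayed between -0.12 and -0.06 over the 20 settings. The 4 AMPA subunits were all on the lower side, from -0.20 (Gria3) to -0.02 (Gria4, which was at 0.00217 without SOR replicate 3), as were 4 of 6 NMDA subunits, 4 of 5 kainate subunits, 4 of 6 metabotropic receptors, 5 of 6 TARPs and both Neto genes, none of them past the test. Gria3 too was lowest in SOR replicate 3, at 180.4 CPM against 230.4 to 238.3 CPM in the other SOR libraries. No gene of the 33 had libraries that separated by exposure, against 5.71% of all genes, and 1 had an unadjusted p under 0.05, against 7.6%.

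That gene was Grin2b (ENSMUSG00000030209.14, chromosome 6, 135713233 to 136173511, minus strand, GRCm38, 24 distinct exons), which encodes the GluN2B subunit. After SOR, replicates 1 to 4 had Grin2b levels of 706, 1014, 698 and 814 CPM. The homecage replicates 1 to 4 had levels of 940, 1174, 934 and 993 CPM. SOR replicates 1, 3 and 4 lay below all homecage libraries and replicate 2 lay among them, so the groups overlapped. The log2 fold change was -0.32 (SE 0.128, 95% interval -0.60 to -0.04, unadjusted p 0.0277 and adjusted p 0.621 by edgeR). With each library left out in turn Grin2b ran from -0.45 (unadjusted p 0.0015, without SOR replicate 2) to -0.24 (unadjusted p 0.0921, without homecage replicate 2). In tTA+ mice alone it was at -0.20 (unadjusted p 0.276), and with all 19 libraries in 1 fit at -0.32 (unadjusted p 0.00268). In that fit the groups of experiment 1 have terms of their own, so they inform the estimate of spread and not the contrast. The adjusted p over all settings was 0.132 to 0.998. Grin2a was at -0.20 (SE 0.132), or -0.13 without SOR replicate 3, and Grin1 was at 0.06 (SE 0.0970), or -0.03 without it. On the higher side Cnih2, named like Grin2b after its values were seen, had the largest value, 0.19 (SE 0.131), with SOR libraries of 294, 308, 402 and 253 CPM against homecage libraries of 289, 249, 260 and 301 CPM. Its highest library was SOR replicate 3, without which the value was 0.05, and the groups overlapped.

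Precision was lower than in experiment 1, and the fit held no term for tTA genotype. The 95% interval of 1 of the 33 genes lay within 0.2 of 0 on the log2 scale, that of 9 within 0.3 and that of 27 within 0.5. The shares of all genes tested were 2.03%, 17% and 44.9%. The summed CPM of 8 choroid plexus markers ran from 24.2 to 2186 in the SOR libraries and from 45.5 to 172 in the homecage libraries, and that of 4 markers of pyramidal and granule neurons from 1702 to 2492 and from 1945 to 2376. All 8 oligodendrocyte markers were higher after SOR, none called by edgeR, at a median of 0.14 on the log2 scale and at sums of 6202 to 7287 against 5715 to 6797 CPM. Their part in the values above was not tested.

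SOR replicate 3 differed from the other SOR libraries in a pattern that followed base composition. Its log2 ratio to the mean of the other 3 SOR libraries correlated across the 33 genes with the GC content of the longest transcript (Pearson r 0.785, Spearman rho 0.771, a description over genes that share 1 library). The same measure gave -0.4, -0.204 and -0.684 for SOR replicates 1, 2 and 4, whose comparison libraries include replicate 3, and -0.0402 to 0.0879 for the homecage libraries. Genes with GC-rich transcripts stood high: Grin2d at 1.93 times, Grm4 at 1.82 times, Grik5 at 1.62 times, Cnih2 at 1.41 times and Grin2c at 1.38 times the mean of the other SOR libraries. Genes with AT-rich transcripts stood low: Grik2 at 0.717 times, Grm5 at 0.725 times, Gria2 at 0.743 times and Neto2 at 0.767 times. Cacng8, with a GC content of 65.0%, was at 0.898 times, and Grm8, with 41.9%, was at 0.997 times. Both departed from the pattern, whose cause was not tested.

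**Figure D3:**
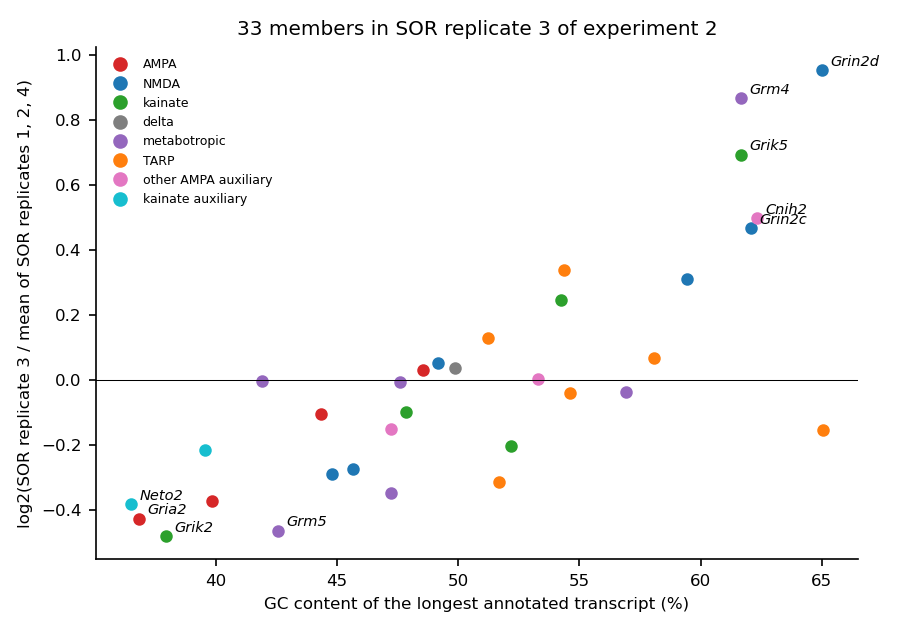
Log2 ratio of SOR replicate 3 of experiment 2 to the mean of SOR replicates 1, 2 and 4 (y axis) against the GC content of the longest annotated transcript in percent (x axis), with 1 point per gene and colours for families. Grin2d, Grm4 and Grik5 lie highest among GC-rich transcripts and Grik2, Grm5 and Gria2 lowest among AT-rich ones.

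The last comparison set tTA+ against tTA- mice of experiment 2 with exposure in the model, 5 against 3 libraries. It uses the same 8 libraries as the comparison of SOR with homecage. None of the 33 genes was called by edgeR, with a smallest adjusted p of 0.153, while 0.358% of 22904 genes were called. An unadjusted p under 0.05 was reached by 6 of the 33 genes, against 5.71% of all genes. Of these 6, Grin3a, Grm8 and Cacng7 were higher in tTA+ mice, as were 2.27% of all genes, and Grik2, Cacng3 and Grm2 were lower, as were 3.44%. The libraries of the genotypes separated in 8 of the 33, against 5.81% of all genes (2.54% higher and 3.27% lower). These 8 were the 6 just named and, on the lower side, Grm7 and Cnih3. Of the 33, 13 were higher and 20 lower, with a median log2 fold change of -0.04 against 0.0128 over all genes, 53.2% of which were higher.

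Grik2 (ENSMUSG00000056073.16, chromosome 10, 49094833 to 49788766, minus strand, GRCm38, 37 distinct exons), a kainate subunit found at mossy fibre synapses, was at 160, 168 and 147 CPM in the tTA- mice (homecage replicates 1 and 2 and SOR replicate 1). In the tTA+ mice it was at 120 and 116 CPM in homecage replicates 3 and 4 and at 118.5, 91.6 and 118 CPM in SOR replicates 2, 3 and 4. All tTA+ libraries lay below all tTA- libraries, and SOR replicate 3 was the lowest. The means were 113 ± 11.98 CPM (SD, n = 5) and 158.5 ± 10.9 CPM (n = 3), and the log2 fold change was -0.45 (SE 0.102, adjusted p 0.153 by edgeR).

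Cacng3 (ENSMUSG00000066189.9, chromosome 7, 122670492 to 122769393, plus strand, 8 distinct exons), a TARP, was at 23.0, 21.9 and 20.5 CPM in the tTA- mice in the same order, and at 15.9, 16.2, 16.3, 16.8 and 14.9 CPM in the tTA+ mice. The 5 tTA+ libraries lay close together and below all 3 tTA- libraries. The log2 fold change was -0.43 (SE 0.0970, adjusted p 0.158 by edgeR). Grm2 (ENSMUSG00000023192.12, chromosome 9, 106643095 to 106656082, minus strand, 14 distinct exons) was at 30.6, 35.8 and 35.3 CPM in the tTA- mice and at 23.2, 24.0, 30.3, 28.3 and 21.5 CPM in the tTA+ mice. SOR replicate 2 came close to the lowest tTA- library, and the genotypes did not overlap. The log2 fold change was -0.45 (SE 0.127, adjusted p 0.371), and 9.60% of the exon bases of Grm2 are shared with an annotated gene on the opposite strand.

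Grin3a (ENSMUSG00000039579.15, chromosome 4, 49661611 to 49845744, minus strand, 14 distinct exons) was at 48.1, 51.1 and 39.0 CPM in the tTA- mice and at 64.8, 58.3, 58.0, 52.9 and 56.2 CPM in the tTA+ mice. Every tTA+ library lay above every tTA- library, with the nearest values from SOR replicate 3 and homecage replicate 2. The log2 fold change was 0.40 (SE 0.0938, adjusted p 0.18 by edgeR). Grm8, a presynaptic inhibitory receptor, was at 11.3, 11.6 and 12.9 CPM in the tTA- mice and at 19.1, 17.6, 13.6, 14.2 and 16.1 CPM in the tTA+ mice, a log2 fold change of 0.47 (SE 0.129, adjusted p 0.350). The homecage tTA+ mice were the highest, and the SOR tTA+ mice lay closer to the tTA- level. Cacng7, a TARP whose gene lies beside Cacng8, was at 14.6, 13.7 and 14.9 CPM in the tTA- mice and at 16.5, 17.3, 16.97, 17.8 and 19.1 CPM in the tTA+ mice. Its genotypes did not overlap either, and the log2 fold change was 0.27 (SE 0.0973, adjusted p 0.659).

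**Figure D4:**
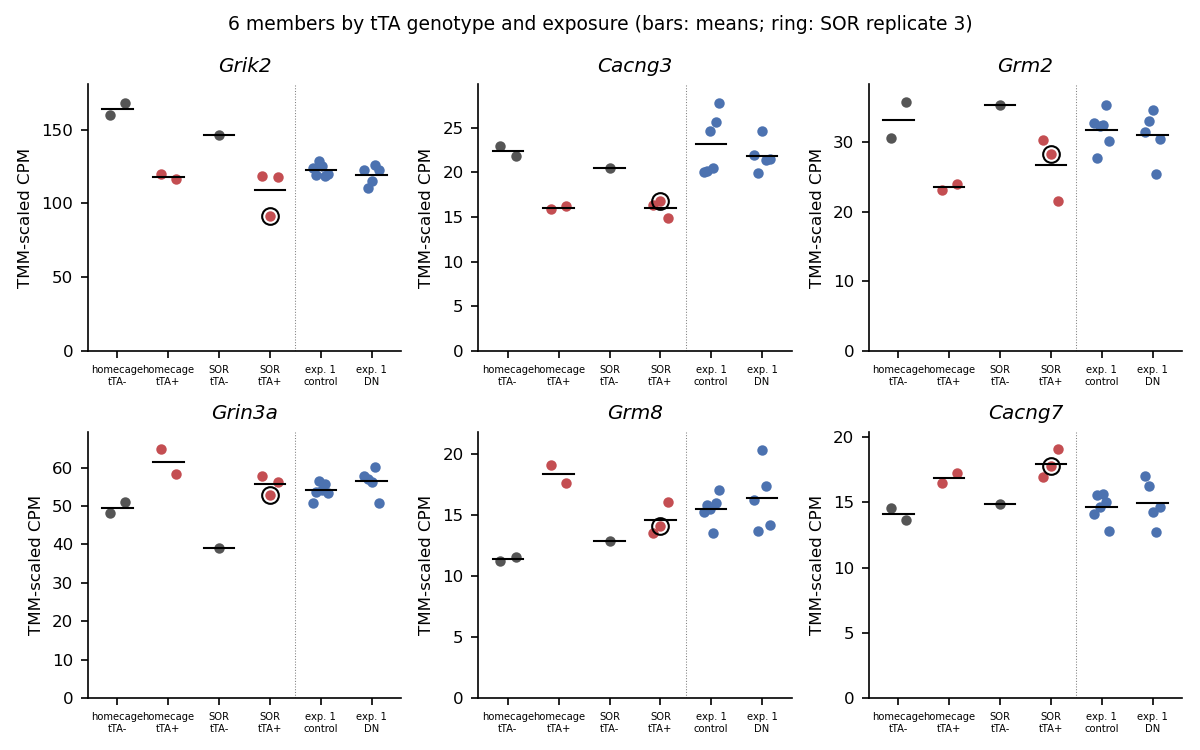
TMM-scaled CPM of the 6 genes with unadjusted p under 0.05 between tTA genotypes, by library (points) with group means (bars), for experiment 2 by exposure and tTA genotype and, right of the dotted line, for the tTA+ mice of experiment 1. In experiment 2 the genotypes do not overlap in any of the 6; the ringed point is SOR replicate 3, the lowest Grik2 value at 91.6 CPM.

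Of the 5 kainate subunits 4 were lower in tTA+ mice and 1 higher, with a median of -0.21. Besides Grik2, Grik3 was at -0.32 (SE 0.148), Grik4 at -0.21 (SE 0.103) and Grik1 at -0.18 (SE 0.115), while Grik5 was at 0.10 (SE 0.221). Gria1, Gria2 and Gria3 lay between -0.18 and -0.15 and Gria4 was at 0.10, none with an unadjusted p under 0.05. Grm7 was at -0.18 (SE 0.0986) and Cnih3 at -0.17 (SE 0.0839), with adjusted p of 0.9999 and 0.953 by edgeR. Cnih3, given in full after its values were seen, was at 74.4, 73.2 and 78.2 CPM in the tTA- mice and at 71.0, 66.2, 63.7, 68.3 and 63.0 CPM in the tTA+ mice, separated by a small margin. Of the 33 intervals, none lay within 0.2 of 0, 6 lay within 0.3 and 24 within 0.5, against 0.816%, 15.5% and 44.2% of all genes tested.

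The number called depended on SOR replicate 3. Without it, 3 were called by edgeR among 290 of 22809 genes: Grik2 at -0.41 (SE 0.0658, adjusted p 0.00992), Cacng3 at -0.45 (SE 0.0798, adjusted p 0.0190) and Grin3a at 0.41 (SE 0.0786, adjusted p 0.0294). Without any 1 of the other 7 libraries none was called. DESeq2 on all 8 libraries called the same 3 genes, among 253 of 22904, with adjusted p of 0.0123, 0.0101 and 0.0132. Within the homecage, 2 tTA+ against 2 tTA- mice, 4 were called among 944 of 22617 genes, namely Grik2 (-0.47), Cacng3 (-0.48), Grm2 (-0.49) and Grm8 (0.69), with adjusted p of 0.00343, 0.0140, 0.0160 and 0.00428. Among SOR mice, with a single tTA- library that was assumed to vary like the others, none of the 33 was called by edgeR. The direction of the 6 genes there was fixed by their choice, since their genotypes do not overlap over the same libraries. A difference in the effect of tTA between exposures was called by edgeR in none of the 33 and none of the 22904 genes (unadjusted p under 0.05 in 1 and 482). With a single tTA- library after SOR this test says little about whether the effects are alike. The 1 gene was Grm8, at 0.69 in the homecage and 0.17 after SOR (difference -0.50, unadjusted p 0.0489 and adjusted p 0.999).

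All mice of experiment 1 were tTA+, so their levels can be set beside those above. The experiments share no group, may differ as batches and were not tested against each other. Grik2 stood at 119 to 129 CPM in the controls and 110 to 126 CPM in DN mice, below all tTA- libraries of experiment 2 and near its tTA+ libraries. Grin3a, at 50.9 to 56.6 CPM in the controls, and Grm8, at 13.5 to 17.1 CPM, were also nearer the tTA+ mean. Cacng3, at 20.01 to 27.8 CPM in the controls and 19.9 to 24.7 CPM in DN mice, lay above all tTA+ libraries of experiment 2 and around its tTA- level. Grm2, at 27.8 to 35.3 CPM in the controls and 25.4 to 34.6 CPM in DN mice, spread over both sides, since the tTA+ libraries reached 30.3 CPM and the lowest tTA- library was at 30.6 CPM. Cacng7 was at 12.8 to 15.6 CPM in the controls, below all tTA+ libraries, and at 12.7 to 17.04 CPM in DN mice, which reached into the tTA+ range of 16.5 to 19.1 CPM. Thus 3 of the 6 genes had experiment 1 means nearer the tTA+ mice and 3 nearer the tTA- mice.

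Some dentate granule cell markers differed with the tTA genotype. The summed CPM of 10 dentate granule cell markers was 666 to 821 in tTA+ and 1021 to 1100 in tTA- libraries, and 676 to 889 in experiment 1. Of these markers 8 were lower and 2 higher, and 5 were called by edgeR: C1ql2, Dsp, Stxbp6 and Rasl10a fell and Tdo2 rose. All 10 were detected in every library, with at least 388 counts. Of the other marker lists, only that of neocortex and subiculum held a called gene, Tbr1, which rose by 1.63 on the log2 scale (SE 0.150, adjusted p 0.00117). The other 5 markers of that list lay between -0.19 (Fezf2) and 0.22 (Nts), and the 6 had a median of 0.09 with 4 higher and 2 lower. None of the 3 CA2 markers, all lower, or of the 3 mossy cell markers, all higher, was called. The summed CPM of 6 CA1 markers was 453 to 521 in tTA+ and 530.5 to 580 in tTA- libraries, that of 6 CA3 markers 738 to 906 and 735 to 783, that of 8 interneuron markers 685 to 849 and 675 to 716, and that of 8 oligodendrocyte markers 6202 to 7287 and 5715 to 6362. The part of these markers in the values of Grik2, Grm2 and the other receptor genes was not tested.

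**Figure D5:**
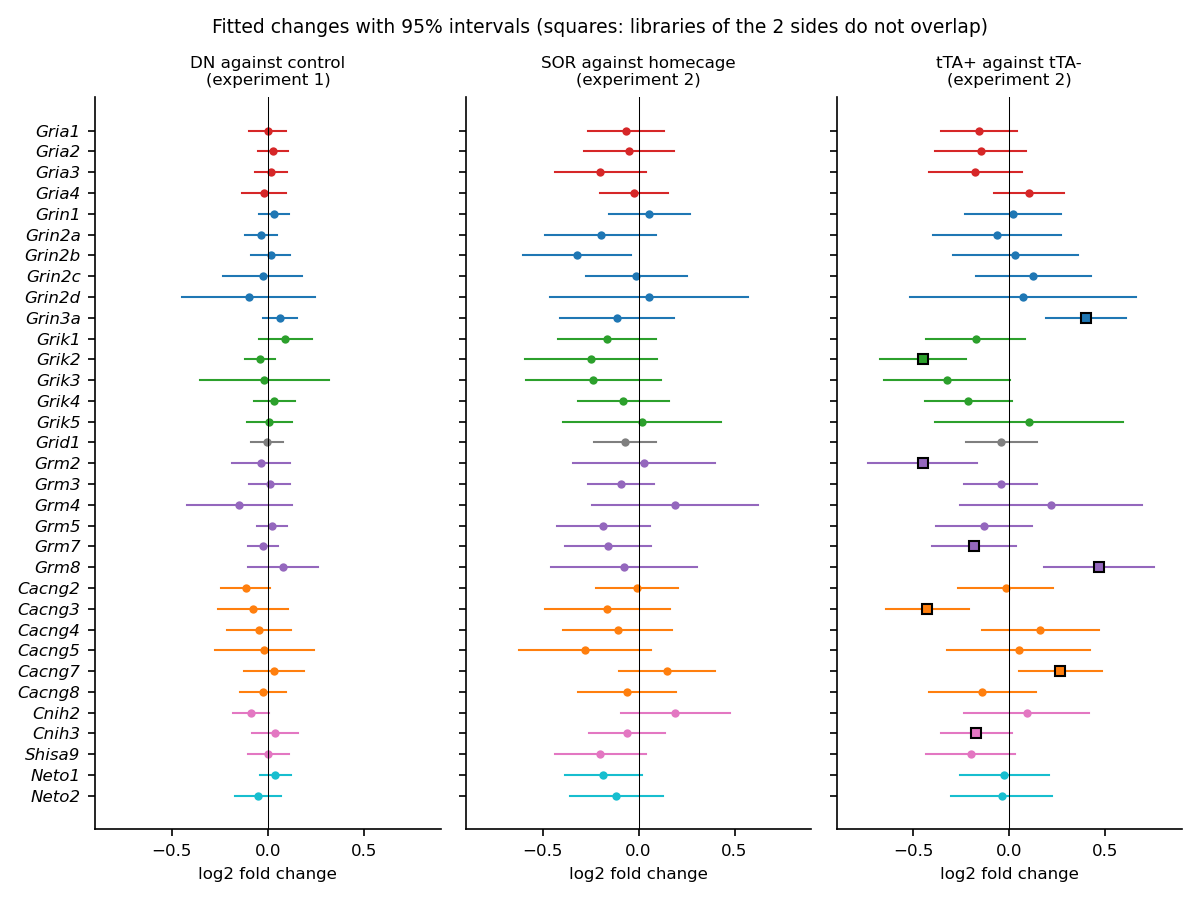
Fitted log2 fold changes (points) with 95% intervals (lines) of the 33 genes in the 3 comparisons, coloured by family. Squares mark genes whose libraries do not overlap between the sides; there are none for DN and for SOR and 8 for tTA, and intervals are narrowest for DN.

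The surroundings of the receptors were followed through 47 other genes of the glutamate synapse (scaffolds, kinases, binding partners, transporters and glutamate metabolism). None was called for DN, where 13 were higher and 34 lower (median -0.01), and none for SOR, where 19 were higher and 28 lower (median -0.05). For SOR the largest value was that of Nptx2, a neuronal pentraxin that clusters AMPA receptors, at 0.64 (SE 0.157, adjusted p 0.336 by edgeR). Its SOR libraries had 32.5, 37.1, 51.6 and 29.2 CPM and its homecage libraries 24.9, 23.2, 21.9 and 26.1 CPM, with no overlap. The groups separated in 3 of the 47 genes, Nptx2, Homer1 and Glul, a share near the 5.71% of all genes in either direction. All 3 were higher after SOR, with Glul (glutamine synthetase) at 0.26 and an adjusted p of 0.624 by edgeR. SOR replicate 3 was the highest library for both Nptx2 and Glul. Glul was at 2448 CPM there, at 1793 to 1948 CPM in the other SOR libraries and at 1555 to 1734 CPM in the homecage. Homer1, a scaffold of group I metabotropic receptors with an activity-induced short form that these counts do not separate, had 341, 318, 279 and 313 CPM in the SOR libraries, all above the homecage libraries at 223, 238, 237 and 243 CPM. Its log2 fold change was 0.41 (SE 0.0817, adjusted p 0.157).

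For tTA, 2 of the 47 genes were called, both lower, against 0.249% of all genes, among 19 higher and 28 lower genes (median -0.03). C1ql2 and C1ql3 encode secreted proteins of the C1q family, of which C1ql2 is known to recruit kainate receptors at mossy fibre synapses. C1ql2 was at 93.5, 83.1 and 81.4 CPM in the tTA- mice and at 19.5, 15.7, 18.0, 26.1 and 16.3 CPM in the tTA+ mice, with no overlap. It fell by 2.19 on the log2 scale (SE 0.162, adjusted p 0.000316 by edgeR), and it is also among the dentate granule cell markers above. C1ql3 was at 51.0, 54.6 and 65.9 CPM in the tTA- mice and at 24.2, 25.1, 30.6, 21.3 and 30.4 CPM in the tTA+ mice. It fell by 1.16 (SE 0.123, adjusted p 0.003). In experiment 1 the mean of C1ql3 was 27.6 CPM in DN mice and 32.1 CPM in controls, which differ by -0.22 on the log2 scale (SE 0.0611, unadjusted p 0.00204 and adjusted p 0.999 by edgeR).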

How the data were processed

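The authors deposited whole-number counts per gene, 1 table for all 19 libraries. Per the labels' protocols, RNA came from frozen tissue by Trizol extraction, and ribosomal RNA was removed (Ribo-Zero Gold) in a TruSeq preparation. The submitters' processing notes name mm10, STAR, SAMtools 1.6 and featureCounts 1.4.4; annotation, strand use and handling of multiply mapped reads are not given in the sources used here, so 17 of the 33 genes that share exon bases with another gene are less certain, 4 of them over more than 5% of their bases.

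Symbols, lengths and positions came from GENCODE M21 (GRCm38), which held 51596 of 51789 identifiers. Each experiment was fitted alone with edgeR 4.0.16 in R 4.3.3 (TMM, filterByExpr, robust quasi-likelihood F test, two-sided, Benjamini-Hochberg over all genes tested, called at an adjusted p under 0.05). All 33 genes passed the filter in each comparison. Comparisons were DN against control, SOR against homecage, and tTA+ against tTA- with exposure in the model. SE is the absolute log2 fold change over the square root of F. The scripts were tested on simulated data.

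Genes named with every library were to be those called, then those with unadjusted p under 0.05 whose groups did not overlap, up to 6 per comparison, and the highest and lowest of each family per length; Cnih2 and Cacng2 (DN), Grin2b and Cnih2 (SOR) and Cnih3 (tTA) fall outside this rule. Alternatives were other scalings and filters, DESeq2 1.42.0, limma-voom (limma 3.58.1), all 19 libraries in 1 fit, a replicate block, tTA or exposure handled otherwise, an adjusted p under 0.1, and each library left out. The genes and lists were chosen with earlier results of these data known. Single promoter sequences are not reported here.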

Additional observations from a re-analysis of the deposited data

Results flagged for a closer look

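In 132 gene-by-group sets of 4 to 6 libraries, 9 had a highest or lowest library far from the others by Dixon's ratio, where chance gives about 1 in 20, or 6.6. Of the 9, 4 belonged to SOR replicate 3 of experiment 2, the smallest library. There Gria3 was at 180.4 CPM against 230.4 to 238.3 in the other SOR libraries, Grm5 at 396.1 CPM against 535.8 to 561.9, Grm7 at 74.08 CPM against 92.9 to 96.57, and Grm4 at 13.01 CPM against 6.839 to 7.467. In the homecage, Grin1 was at 177.4 CPM in replicate 3 against 196.5 to 199.6 in the others, and Grm5 at 626.0 CPM in replicate 2 against 559.2 to 565.8. In experiment 1, Gria4 was at 109.3 CPM in DN replicate 3 against 85.98 to 91.87, Grid1 at 69.64 CPM in DN replicate 5 against 75.03 to 76.97, and Grin2c at 27.27 CPM in control replicate 1 against 35.56 to 39.37.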

How the results depend on the processing

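No fitted fold change of a called gene among the 33 reversed its direction. Of the 33 genes, 16 kept their sign under every setting for DN, 19 for SOR and 18 for tTA, and none was called for DN or SOR under any setting. For tTA, the 33 held 2 called genes with no filter on low counts (Grik2 and Grm2), where 265 of 36930 genes were called. They held 3 with DESeq2, 4 with all 19 libraries in 1 fit (Grin3a, Grik2, Grm2 and Cacng3), 4 in homecage mice alone, and 0 to 3 with each library left out. In the fit of all 19 libraries, experiment 1 informs the estimate of spread and not the contrast. Calls over all genes also rose with no filter, DESeq2, all 19 libraries and homecage mice alone, as given below.

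Over all genes, DN calls stayed at 2 under every setting. SOR calls, 20 as reported, were 35 at an adjusted p under 0.1, 36 with no filter, 122 with DESeq2, 145 with all 19 libraries, 11 with tTA as a covariate, 0 in tTA+ mice alone by edgeR (374 at an unadjusted p under 0.05), and 1 to 50 with each library left out. Calls for tTA, 82 as reported, were 133 at an adjusted p under 0.1, 265 with no filter, 253 with DESeq2, 384 with all 19 libraries, 944 in homecage mice alone, 0 in SOR mice alone by edgeR (234 at an unadjusted p under 0.05, a setting chosen after seeing the data), and 10 to 290 with each library left out. The causes were not tested.

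No label says that replicate numbers pair the libraries. Deviations of same-numbered libraries correlated at -0.05 to 0.194 in experiment 1, where 1 of 5 libraries correlated best with its own number. In experiment 2 they correlated at 0.0454 to 0.391, all above 0, and 2 of 4 libraries correlated best with their own number. Whether numbers mark pairs there was not settled. With a replicate block, SOR calls were 9 and Grin2b for SOR was at -0.33 (unadjusted p 0.00112, adjusted p 0.268). For SOR an unadjusted p under 0.05 by edgeR was then reached by 2533 genes, 6 of them among the 33. Without the block it was reached by 1695 genes, 1 of them among the 33. The tTA calls were 0 by edgeR (389 at an unadjusted p under 0.05), where only number 2 differs in genotype, so that 1 pair carries the estimate: Grin3a was at 0.40 (SE 0.221) and Grik2 at -0.34 (SE 0.223). Under the block DN calls remained 2 in number, and no gene of the 33 was called.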
